A study of Mus musculus with 16 samples.

Results

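The collagens and small leucine-rich proteoglycans (SLRPs) of mouse dorsal root ganglia (DRG) were examined in 16 RNA-seq libraries. The members are every gene symbol of the count tables that reads Col, a number, a and a number, with the SLRP genes Lum, Dcn, Ogn, Bgn, Fmod, Omd, Prelp and Aspn added. The rule gave 51 genes of 22609, namely 43 collagen genes and 8 SLRP genes. It used names only, and no measured value, but was chosen with earlier results of these data known.

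The study compared DRG cells after the chemotherapy drug paclitaxel (PTX) or vehicle, with or without a deletion of the lymphotoxin beta receptor (LTbR, gene Ltbr) in sensory neurons. The libraries came from male mice of 8 to 16 weeks. In 4 groups of 4 libraries, LTbR-fl/fl mice, whose receptor gene is flanked by loxP sites but intact, or Nav1.8/LTbR CKO mice, which carry the same floxed gene and a Cre recombinase driven by Nav1.8, received PTX or vehicle (labelled water). The treatment protocol given with every library, vehicle libraries included, describes PTX injection, and the groups follow the treatment label. Nav1.8 is a sodium channel of pain-sensing neurons, so that the deletion is directed to these cells and other cells of the ganglion keep the receptor gene. PTX was injected into the abdomen at 6 mg per kg, 3 times with 2 days between doses. All mice also received a fluorescent wheat germ agglutinin tracer in the paw on day 16 after the last dose, and lumbar DRG were taken on day 18, dissociated and sorted for tracer-positive cells, which the design text calls neurons. The design text states 3 per group where the labels list 4, and the labels do not say whether a library is 1 animal or a pool, so p-values measure the spread between libraries, which may be technical.

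Collagens are triple helices of 3 chains. Fibrillar collagens build the tensile fibres of connective tissue, collagen IV chains form the sheet-like network of basement membranes, and other families decorate fibres, link sheets to fibres or stay anchored in a cell membrane. SLRPs are small proteins that bind to collagen fibres and set their diameter and spacing. In a nerve or ganglion these genes are known as products of fibroblasts of the connective sheaths, of Schwann cells and satellite glia, which lay down a basement membrane, and of vessel cells, and not chiefly of neurons.

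Between 7906504 and 11668007 counts per library fell on genes, and 30 to 45 of the 51 members had a count in a library. Libraries labelled CKO did not have less Ltbr: its level, in CPM (counts scaled to equal library size, the unit of all levels here), was 42.4 to 51.4 after vehicle and 6.06 to 15.6 after PTX in fl/fl, against 32.3 to 99.0 and 5.88 to 28.4 in CKO. Its count covers the whole gene and not the deleted part alone, so the genotype is given throughout as labelled. Although cells were sorted, markers of other cells were abundant. The summed CPM of 8 neutrophil markers ran from 63059 to 210779 in the 8 vehicle libraries. After PTX it ran from 244 to 9079.6 in the 4 libraries with the earlier date in their titles and from 43374 to 106964 in the 4 with the later date. The meaning of the dates is not given; each treatment has its own pair of dates, so date and treatment cannot be told apart, while both genotypes occur at every date.

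Collagen and SLRP transcripts were lower after PTX in both genotype labels. In fl/fl the 51 members summed to 2338 to 4542 CPM after vehicle (median 2795, n = 4) and to 302 to 997 CPM after PTX (median 547, n = 4). In CKO the sums were 1461 to 4118 CPM (median 2798) after vehicle and 361 to 1635 CPM (median 939.6) after PTX. The fl/fl groups did not overlap, and in CKO the highest PTX library exceeded the lowest vehicle library. CPM are relative to the rest of a library, so a lower sum in a mixed sample has several possible sources. Fewer cells of a type, less RNA per cell and more RNA from other cells cannot be told apart here.

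Of the 51 members, 39 (32 collagens and 7 SLRPs) passed the filter on low counts and were tested with edgeR. A gene is called here where its edgeR p, adjusted over all 14200 genes tested, was under 0.05. In fl/fl, 8 members were called lower after PTX (Lum, Col1a2, Dcn, Col3a1, Ogn, Col4a1, Col28a1 and Bgn) and 0 were called higher. Of all genes tested, 1.76% were called lower and 3.2% higher. In CKO, 6 were called lower (Ogn, Col18a1, Col3a1, Lum, Col1a2 and Col5a2) and 0 higher, where 0.359% of all genes were called lower and 2.22% higher. The median log2 fold change of the 39 members was -2.13 in fl/fl and -1.80 in CKO, and 36 of the 39 were below 0 in each. The median of all genes tested was -0.01 and 0.02.

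Col1a2, Col3a1, Lum and Ogn were called in both genotype labels, which is 50% of the fl/fl calls and 66.7% of the CKO calls. The PTX comparisons in fl/fl and in CKO have no library in common. Without an adjusted threshold, 0 members were higher in fl/fl at an edgeR p under 0.05, where 11.3% of all genes were, and 2 members were in CKO (Col4a3 and Col25a1), where 12.7% of all genes were. The libraries of the groups did not overlap, with PTX lower, for 18 of the 39 members in fl/fl (7.8% of all genes) and for 6 in CKO (4.54% of all genes). DESeq2 called 16 members lower and 0 higher in fl/fl (4.76% of all genes were called lower), and 7 lower and 1 higher (Col4a3) in CKO (3.13% lower and 6.24% higher). With the voom method of limma, 29 were lower and 1 higher (Col24a1) in fl/fl (18.4% and 18.8% of all genes) and 11 lower in CKO (10.1% of all genes). This method shifted the median of all genes to 0.24 and 0.29.

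**Figure D1:**
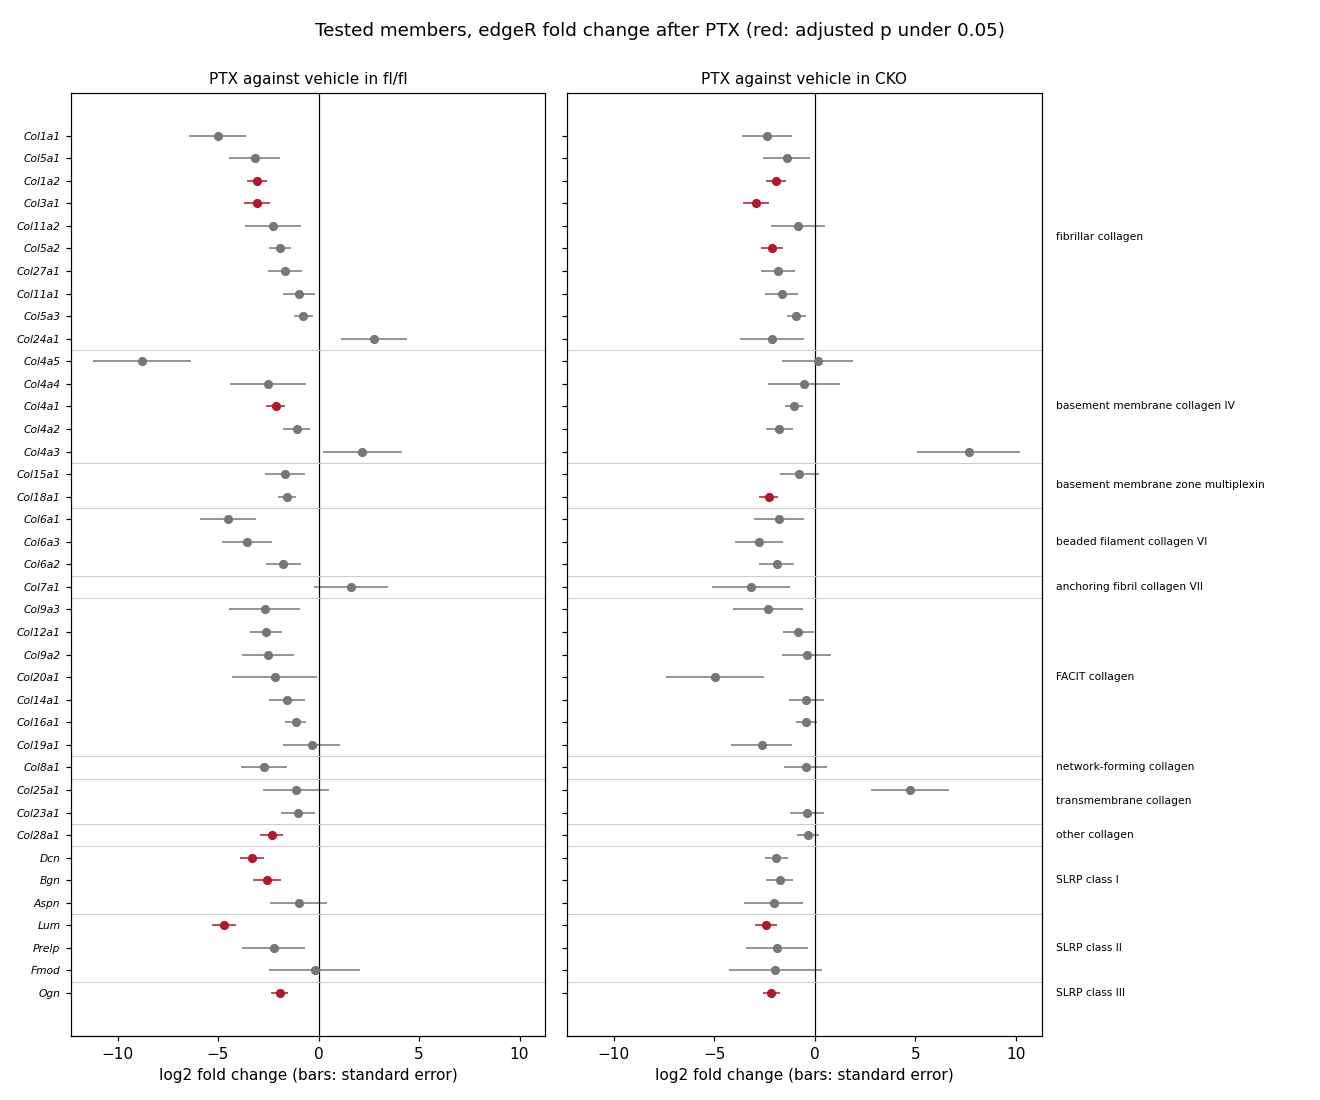
Log2 fold change after PTX (horizontal axis, bars are standard errors) of each of the 39 tested members (vertical axis, grouped by role) in fl/fl (left) and CKO (right), 4 libraries a group. Red points are the 8 members called in fl/fl and the 6 called in CKO, all to the left of 0.

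The calls depended on which PTX libraries entered. Without the 4 PTX libraries of the earlier title date 0 members were called in either genotype label, with medians of -1.84 in fl/fl and -1.25 in CKO. Over all genes that comparison called 3 lower and 1 higher in fl/fl and 0 in CKO. Without the 4 of the later date 13 and 11 members were called, all lower, where 7.92% and 8.47% of all genes were called lower. Leaving out fl/fl PTX replicate 1 or replicate 2 left 4 of the 8 fl/fl calls. Leaving out CKO PTX replicate 1, CKO PTX replicate 2 or CKO vehicle replicate 2 left 0 of the 6 CKO calls, and leaving out CKO vehicle replicate 1 or 3 left 3. The members' sum was 302 to 1059 CPM in the PTX libraries of the earlier date and 629.9 to 1635 CPM in those of the later date.

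Markers of several cell types also differed between treatments. The 12 fibroblast markers that are no members, of which 11 had a count and Tcf21 had none, summed to 1242 to 1717 CPM after vehicle and 336 to 693 CPM after PTX in fl/fl, and to 1345 to 1712 and 313 to 983 CPM in CKO. The fibroblast list was Pdgfra, Pdgfrb, Dpt, Pi16, Clec3b, Mfap5, Islr, Cd34, Ly6a, Thy1, Tcf21 and Gsn. Of the 9 fibroblast markers tested, 2 were called lower in fl/fl and 0 in CKO. Log2 fold changes were below 0 for 8 of the 9 in fl/fl and for 6 in CKO. The fibroblast markers Dpt and Clec3b had 15 and 10 counts in all libraries together. The 7 Schwann cell markers, all detected, summed to 8012 to 11377 CPM after vehicle and 2288 to 3481 CPM after PTX in fl/fl (5 called lower), and to 7371 to 11698 and 2585 to 4329.9 CPM in CKO (4 called lower). The 7 satellite glia markers summed to 25121 to 35495 CPM after vehicle and 4397 to 14928 CPM after PTX in fl/fl (4 called lower), and to 11248 to 31427 and 9418 to 24499 CPM in CKO (1 called lower). Macrophage markers, 8 of 8 detected, summed to 417 to 2413 and 18.2 to 299.6 CPM in fl/fl, without overlap (2 called lower). In CKO they summed to 423 to 2676 and 21.0 to 435 CPM (0 called). The 8 endothelial markers summed to 79.7 to 197 CPM after vehicle and 38.2 to 56.6 CPM after PTX in fl/fl, and to 29.7 to 162 and 23.7 to 77.6 CPM in CKO. The 8 mural cell markers summed to 401 to 1244 and 105 to 646 CPM in fl/fl and to 573 to 1407 and 56.2 to 835 CPM in CKO. The endothelial and mural sums overlapped between treatments, except for the endothelial markers in fl/fl. In either genotype label 0 of these vessel markers were called. Perineurial markers, 5 of 5 detected, summed to 281 to 596 and 179.6 to 297 CPM in fl/fl (1 of 4 tested called lower). Another 1 of the 4 went the other way in fl/fl, with a log2 fold change of 5.25, and was not called. In CKO the perineurial sums were 297 to 392 CPM after vehicle and 166 to 357 CPM after PTX (0 called).

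Sensory neuron markers moved the other way. Their 10 genes summed to 1363 to 5139 CPM after vehicle and 11804 to 20959 CPM after PTX in fl/fl, with 10 of 10 called higher. In CKO the sums were 1315 to 3552 and 9891 to 21768 CPM, with 7 of 10 called higher. Divided by the fibroblast marker sum, the members' sum was 1.36 to 2.72 after vehicle and 0.897 to 1.48 after PTX in fl/fl, and 1.00 to 2.69 and 0.925 to 2.03 in CKO. These ratios overlapped between treatments in both genotype labels. They relate to the sum of the listed marker genes and are not levels per fibroblast. The part of any of these cell types in the change of the members was not tested.

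**Figure D2:**
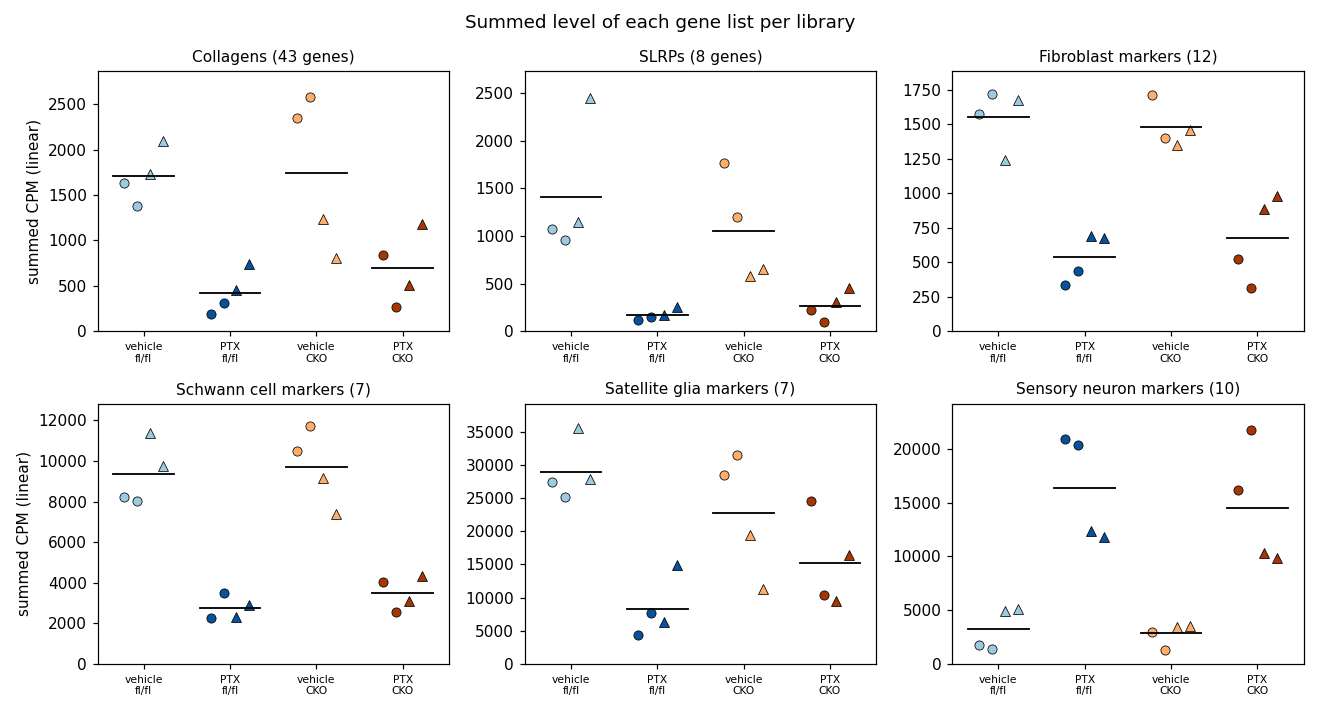
Summed level (vertical axis, CPM on a linear scale from 0) of the 43 collagens, the 8 SLRPs and 4 marker lists in each of the 16 libraries by group, with circles for the earlier and triangles for the later title date of each treatment and bars for the group mean. Collagens, SLRPs and the fibroblast, Schwann cell and satellite glia markers sit lower after PTX in fl/fl without overlap, and neuron markers sit higher.

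Among the fibrillar collagens, 10 of the 11 genes were tested, 2 were called lower after PTX in fl/fl and 3 in CKO. Col1a2 encodes the second chain of collagen I, the main fibre of connective tissue. In fl/fl it stood at 261, 225, 349 and 415 CPM in the 4 vehicle libraries and at 18.1, 35.8, 37.6 and 56.7 CPM in the 4 PTX libraries. All PTX libraries lay below all vehicle libraries, and the log2 fold change was -3.08 (SE 0.51, edgeR adjusted p = 0.00582), or 8.43-fold lower. Its CKO libraries stood at 262, 513, 159.9 and 135 CPM after vehicle and 119, 26.9, 64.2 and 69.2 CPM after PTX. These groups did not overlap either, and Col1a2 fell by 1.94 on the log2 scale (SE 0.48, edgeR adjusted p = 0.0435). The CKO call was lost without any one of the 4 PTX libraries or without vehicle replicate 1, 2 or 3 (edgeR adjusted p from 0.0557 to 0.143).

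Col3a1 encodes collagen III, which forms thin fibres together with collagen I. Its level was 191, 169.6, 95.1 and 208 CPM after vehicle and 5.23, 20.3, 32.1 and 21.4 CPM after PTX in fl/fl. In CKO it was 396, 181, 111 and 100.5 CPM after vehicle and 11.4, 7.69, 46.3 and 39.0 CPM after PTX. The groups were apart in both genotype labels, with log2 fold changes of -3.07 (SE 0.65, edgeR adjusted p = 0.0138) and -2.92 (SE 0.64, edgeR adjusted p = 0.0262). The fl/fl call was lost without PTX replicate 2 (edgeR adjusted p = 0.0515), and the CKO call without PTX replicate 1 or 2 or vehicle replicate 1 or 2 (0.0665 to 0.0936).

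Col5a2, a chain of collagen V, which starts and limits the growth of collagen I fibres, lies next to Col3a1 in the mouse genome. It stood at 82.8, 41.6, 57.0 and 75.5 CPM after vehicle and 6.39, 9.93, 14.7 and 36.8 CPM after PTX in fl/fl, and at 67.9, 102, 80.7 and 26.4 CPM after vehicle and 23.0, 9.68, 15.9 and 14.6 CPM after PTX in CKO. Col5a2 fell in CKO by 2.13 (log2, SE 0.55, edgeR adjusted p = 0.0476). Its fl/fl fold change of -1.92 (SE 0.54) had an edgeR adjusted p of 0.0509. The groups did not overlap in either genotype label. The CKO call was lost when any library but CKO vehicle replicate 4 was left out (edgeR adjusted p from 0.0662 to 0.163).

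Col5a3, another chain of collagen V, had the highest level per length of the fibrillar members after PTX in fl/fl. Its libraries stood at 121, 116, 184 and 143 CPM after vehicle and at 38.0, 44.5, 69.0 and 181 CPM after PTX in fl/fl, and at 249.9, 224, 159 and 86.5 CPM after vehicle and 108, 48.8, 85.8 and 139 CPM after PTX in CKO. The groups overlapped, and the fold changes of -0.76 and -0.91 (log2, edgeR adjusted p = 0.405 and 0.298) did not pass. Col1a1, the first chain of collagen I, falls outside the rule for named genes and was chosen after its values were seen. It stood at 152, 67.7, 109 and 196 CPM after vehicle and 1.41, 6.86, 7.86 and 0.102 CPM after PTX in fl/fl. The groups were far apart, with a log2 fold change of -5.01 (SE 1.41, edgeR adjusted p = 0.0544). In CKO its levels were 299, 186, 2.68 and 57.1 CPM after vehicle and 17.4, 1.23, 9.59 and 77.7 CPM after PTX, with 1 vehicle library below 3 of the 4 PTX libraries. Col5a1, Col11a1, Col11a2, Col24a1 and Col27a1 had log2 fold changes from -3.18 (Col5a1) to 2.74 (Col24a1) in fl/fl, none of them called.

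Windows of promoter sequence from RefSeq (GRCm38.p6, 250 bases before to 50 after a start site) were found for 41 of the 51 members. The windows of 2 fibrillar genes called in both genotype labels are shown, with matches in either orientation to the CCAAT box, the TATA box (searched as TATAAA) and the GC box (searched as GGGCGG) in capitals.
Col1a2 (chr6:4505368-4505667, plus strand): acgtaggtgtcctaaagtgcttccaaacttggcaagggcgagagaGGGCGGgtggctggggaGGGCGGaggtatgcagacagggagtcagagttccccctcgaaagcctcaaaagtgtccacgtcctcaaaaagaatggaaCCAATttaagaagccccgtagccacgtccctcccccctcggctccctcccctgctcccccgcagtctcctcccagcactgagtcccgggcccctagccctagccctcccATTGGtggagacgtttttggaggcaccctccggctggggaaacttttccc
Col3a1 (chr1:45311288-45311587, plus strand): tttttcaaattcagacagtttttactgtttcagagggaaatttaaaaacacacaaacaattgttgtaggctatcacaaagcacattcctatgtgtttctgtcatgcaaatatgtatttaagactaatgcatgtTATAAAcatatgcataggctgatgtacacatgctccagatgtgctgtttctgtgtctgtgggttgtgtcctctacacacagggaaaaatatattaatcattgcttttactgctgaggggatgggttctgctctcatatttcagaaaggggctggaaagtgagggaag

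Col1a2 held a CCAAT 109 bases before its start site, another in reverse at the start site, and GGGCGG at 205 and 188 bases before it. Col3a1 held TATAAA 117 bases before its start site and neither of the other motifs. The Col1a2 window was 61% and the Col3a1 window 37.7% G and C, against a median of 52.7% over 32841 windows. CCAAT occurred in 37.4% of all these windows and in 16 of 44 windows of the members. TATAAA occurred in 13.6% of all windows and in 7 of 44, and GGGCGG in 35.7% and in 24 of 44. A match describes the letters of the window and not the use of a site.

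The 2 chain genes of collagen I did not keep a fixed ratio over the libraries. To compare genes, CPM were divided by gene length in kilobases (kb) from the exons of GENCODE M21, a build other than that of the counts. On this scale Col1a1 was at 0.570 to 1.10 times the level of Col1a2 in the vehicle fl/fl libraries and at 0.00339 to 0.396 times after PTX. The lowest ratio, in PTX fl/fl replicate 4, rests on 1 count of Col1a1. In CKO the ratio was 0.0318 to 2.16 after vehicle and 0.0870 to 2.13 after PTX. It was above 1 in 3 of 16 libraries. Col4a1 exceeded Col4a2 in 14 of 16 libraries (ratios from 0.297 to 5.50), and Col6a1 exceeded Col6a2 in 4 of 16 (from 0 to 4.40). The ratio of 0, in PTX fl/fl replicate 4, is 0 counts of Col6a1 against 1 of Col6a2.

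**Figure D3:**
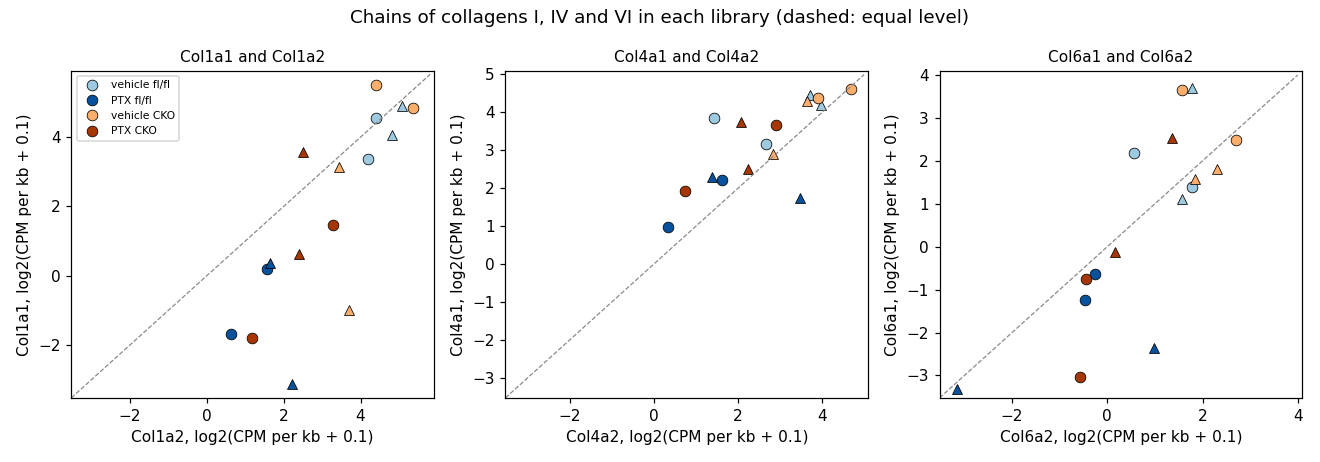
Level of 1 chain gene against another of the same collagen in each of the 16 libraries (both axes log2 of CPM per kb + 0.1; circles for the earlier and triangles for the later title date of each treatment; the dashed line marks equal levels). For collagen I the PTX fl/fl libraries sit low on both axes, and Col1a1 lies above the line in 3 of 16 libraries.

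Basement membrane collagen IV has 6 chain genes, arranged in the genome as 3 head-to-head pairs, and 5 of them were tested. Col4a1 and Col4a2 encode the chains of the common network found in most basement membranes. In fl/fl, Col4a1 stood at 106, 66.6, 135 and 163 CPM after vehicle and 14.0, 33.7, 35.7 and 24.3 CPM after PTX. The groups did not overlap, and it fell by 2.13 (log2, SE 0.48, edgeR adjusted p = 0.0185). The call was lost without PTX replicate 1 or 2 (edgeR adjusted p = 0.0757 and 0.0515). In CKO, Col4a1 stood at 153, 182, 147 and 54.9 CPM after vehicle and 94.7, 27.8, 41.9 and 98.8 CPM after PTX, which overlapped, with a fold change of -1.03 (edgeR adjusted p = 0.228).

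Its partner Col4a2 stood at 17.2, 41.3, 103 and 86.4 CPM after vehicle and 7.72, 19.6, 16.6 and 72.5 CPM after PTX in fl/fl, where PTX replicate 4 lay above 2 vehicle libraries. In CKO it was at 97.4, 171, 81.7 and 46.2 CPM after vehicle and 48.6, 10.3, 30.4 and 27.2 CPM after PTX. The fold changes were -1.09 (SE 0.68, edgeR adjusted p = 0.415) and -1.76 (SE 0.69, edgeR adjusted p = 0.168). The RefSeq start sites of the 2 genes lie 21 bases apart on opposite strands. Their promoter windows (GRCm38.p6) are shown because they share 78 bases, which the capitals mark and which read as the reverse complement of each other.
Col4a1 (chr8:11312777-11313076, minus strand): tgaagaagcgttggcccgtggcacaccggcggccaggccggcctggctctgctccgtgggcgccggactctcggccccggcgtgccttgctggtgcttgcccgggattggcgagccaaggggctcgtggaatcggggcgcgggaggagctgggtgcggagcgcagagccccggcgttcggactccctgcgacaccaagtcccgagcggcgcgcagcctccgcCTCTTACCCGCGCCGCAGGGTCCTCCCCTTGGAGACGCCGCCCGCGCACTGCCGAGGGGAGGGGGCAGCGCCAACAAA
Col4a2 (chr8:11312555-11312854, plus strand): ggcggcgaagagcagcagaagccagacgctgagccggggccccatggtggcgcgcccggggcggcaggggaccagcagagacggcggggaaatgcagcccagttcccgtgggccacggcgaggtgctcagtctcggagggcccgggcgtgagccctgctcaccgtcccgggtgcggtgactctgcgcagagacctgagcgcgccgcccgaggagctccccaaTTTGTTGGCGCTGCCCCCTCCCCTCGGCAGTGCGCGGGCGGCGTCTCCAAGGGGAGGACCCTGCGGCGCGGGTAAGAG

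The 2 windows were 74% and 73.7% G and C. Col4a3 and Col4a5, chains of the networks of kidney, ear and some other basement membranes, were low in most libraries. Col4a3 was at 0.109, 2.22, 2.31 and 2.08 CPM after vehicle and 0.747, 2.81, 11.0 and 16.1 CPM after PTX in fl/fl. In CKO it was at 0, 0, 0 and 0.208 CPM after vehicle and 0, 0, 0.103 and 53.8 CPM after PTX, so that PTX replicate 4 alone held nearly all of its 452 counts. Against the 2 counts of the vehicle group this is a ratio of 206 (95% exact counting interval 56.7 to 1707, which covers counting error only), and the edgeR adjusted p was 0.112.

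Col4a5 was at 0 in all 4 PTX fl/fl libraries, and stood at 0, 4.57, 13.8 and 3.83 CPM after vehicle. Taking 3 counts in the whole group as the floor, it was at least 86.7-fold lower after PTX, with 1 vehicle library also at 0 and an edgeR adjusted p of 0.0562. The CKO libraries held 3.14, 2.66, 5.11 and 0 CPM after vehicle and 0.0985, 1.8, 8.04 and 2.03 CPM after PTX.

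Collagens XV and XVIII lie in the zone between basement membranes and fibres, and the end fragment of collagen XVIII is endostatin. Col18a1 stood at 48.4, 38.3, 39.9 and 34.8 CPM after vehicle and 9.35, 5.69, 7.94 and 9.78 CPM after PTX in CKO. The 4 PTX libraries were close together and far below the vehicle libraries, and Col18a1 fell by 2.30 (log2, SE 0.48, edgeR adjusted p = 0.0204). The call was lost without PTX replicate 1 or 2 or vehicle replicate 2 or 3 (edgeR adjusted p from 0.0521 to 0.0893). In fl/fl it stood at 49.8, 20.4, 50.2 and 51.7 CPM after vehicle and 11.9, 9.05, 11.9 and 25.2 CPM after PTX, with vehicle replicate 2 below PTX replicate 4, and a fold change of -1.57 (edgeR adjusted p = 0.0635). Col15a1 stood at 9.14 to 24.4 CPM after vehicle and 0.664 to 13.0 CPM after PTX in fl/fl and at 7.82 to 29.0 and 0.854 to 13.2 CPM in CKO. Its groups overlapped in both, with fold changes of -1.68 and -0.77 (edgeR adjusted p = 0.384 and 0.706).

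The remaining collagens hold 1 further call. Col28a1 encodes collagen XXVIII, which is known for its expression around Schwann cells of peripheral nerve. In fl/fl it stood at 278, 168, 241 and 202 CPM after vehicle and 16.4, 44.6, 60.3 and 54.8 CPM after PTX. The groups did not overlap, and it fell by 2.34 (log2, SE 0.58, edgeR adjusted p = 0.0295). The call was lost without PTX replicate 1 or 2 or vehicle replicate 1, 2 or 3 (edgeR adjusted p from 0.0502 to 0.103). Col28a1 in CKO stood at 227, 241, 126 and 46.8 CPM after vehicle and 150.0, 55.6, 48.1 and 260.0 CPM after PTX. There the highest library of all was a PTX library and the lowest a vehicle library, and the fold change was -0.32 (SE 0.55, edgeR adjusted p = 0.799).

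Collagen VI forms beaded filaments beside basement membranes, and 3 of its 6 genes were tested, with 0 calls. Col6a2 stood at 11.5 to 27.7 CPM after vehicle and 0.102 to 15.5 CPM after PTX in fl/fl, and at 23.7 to 53.6 and 4.75 to 20.6 CPM in CKO, where the groups did not overlap. Col6a3 stood at 9.94 to 48.4 and 0 to 4.80 CPM in fl/fl, without overlap, and at 7.61 to 70.3 and 0.239 to 15.5 CPM in CKO. The log2 fold changes in fl/fl were -1.75 (SE 0.88, edgeR adjusted p = 0.291) and -3.58 (SE 1.23, edgeR adjusted p = 0.113). Those in CKO were -1.90 and -2.76 (edgeR adjusted p = 0.242 and 0.207).

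The FACIT collagens sit on the surface of fibres, and 7 of their 9 genes were tested, again with 0 calls. Col12a1 stood at 22.4, 24.6, 20.5 and 34.0 CPM after vehicle and 1.58, 7.38, 6.54 and 1.02 CPM after PTX in fl/fl. The groups were apart, with a fold change of -2.62 (log2, SE 0.80, edgeR adjusted p = 0.0738). In CKO it stood at 49.9, 40.6, 30.2 and 3.54 CPM after vehicle and 20.5, 6.64, 21.8 and 21.5 CPM after PTX, with vehicle replicate 4 below every PTX library. Col16a1 stood at 57.1 to 89.1 CPM after vehicle and 16.9 to 48.7 CPM after PTX in fl/fl, also without overlap (fold change -1.14, edgeR adjusted p = 0.251). In CKO it overlapped, at 28.9 to 96.3 and 13.2 to 66.6 CPM (fold change -0.42, edgeR adjusted p = 0.708). Over all 7, fold changes ran from -2.69 to -0.35 in fl/fl and from -4.96 to -0.40 in CKO.

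Of the network-forming and membrane-spanning collagens, Col8a1, known from vessel walls, stood at 68.7, 26.2, 31.0 and 20.7 CPM after vehicle and 3.90, 5.71, 12.1 and 0.305 CPM after PTX in fl/fl (log2 fold change -2.74, SE 1.15, edgeR adjusted p = 0.193). In CKO its vehicle libraries were split, at 85.8, 61.4, 3.84 and 2.08 CPM, and its PTX libraries stood at 21.9, 4.08, 15.1 and 70.4 CPM. Col23a1, a membrane-spanning collagen, stood at 5.50 to 50.2 CPM after vehicle and 4.22 to 43.1 CPM after PTX in fl/fl and at 14.9 to 63.7 and 6.64 to 33.8 CPM in CKO. Its groups overlapped and it was not called (edgeR adjusted p = 0.543 and 0.846). Col25a1, a membrane-spanning collagen made by neurons, had 1 count in the 4 vehicle CKO libraries and 42 in the 4 PTX CKO libraries, a ratio of 38.3 (95% exact counting interval 6.51 to 1549, edgeR adjusted p = 0.189). The 4 PTX CKO libraries held 32, 4, 6 and 0 of these counts, and the interval covers counting error only. In fl/fl it stood at 5.03, 2.46, 1.24 and 0.249 CPM after vehicle and 0.747, 0.791, 2.55 and 0 CPM after PTX. Col7a1, the anchoring fibril collagen, reached at most 6.04 CPM in any library and was not called.

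SLRPs gave 4 calls among 7 tested genes in fl/fl and 2 in CKO, all lower after PTX. Lum encodes lumican, which controls the spacing of collagen fibres. In fl/fl it stood at 175, 122, 80.4 and 335 CPM after vehicle and at 5.56, 6.77, 8.07 and 6.81 CPM after PTX. The PTX libraries were close together and every one was below the lowest vehicle library. Lum fell by 4.71 on the log2 scale (SE 0.60, edgeR adjusted p = 0.00183), which is 26.2-fold and the smallest adjusted p among the members. In CKO it stood at 83.4, 154, 19.8 and 104 CPM after vehicle and 21.4, 8.07, 18.0 and 19.7 CPM after PTX. There vehicle replicate 3 lay within the range of the PTX libraries, and Lum fell by 2.43 (SE 0.54, edgeR adjusted p = 0.0273). The CKO call was lost without PTX replicate 1 or 2 or vehicle replicate 2 (edgeR adjusted p from 0.0653 to 0.112).

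Dcn encodes decorin, which coats collagen fibres and binds transforming growth factor beta (TGF-beta). Its mean level per length was the highest of all members in both vehicle groups and in PTX fl/fl, and second to Col28a1 in PTX CKO. Dcn in fl/fl stood at 661, 472, 611 and 1709.9 CPM after vehicle and 73.1, 77.7, 127 and 74.7 CPM after PTX. Vehicle replicate 4 stood well above the rest, and all 4 vehicle libraries were above all PTX libraries. Dcn fell by 3.29 (log2, SE 0.59, edgeR adjusted p = 0.00786), or 9.81-fold. In CKO it stood at 967, 617, 134 and 342 CPM after vehicle and 108, 49.3, 169 and 222 CPM after PTX, with vehicle replicate 3 within the PTX range and a fold change of -1.91 (SE 0.56, edgeR adjusted p = 0.0745). Dcn and Lum are neighbours in the genome.

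Ogn encodes osteoglycin, also called mimecan. It stood at 94.6, 138, 122 and 165 CPM after vehicle and 19.4, 40.4, 17.6 and 58.8 CPM after PTX in fl/fl. Ogn in CKO stood at 216, 182, 142 and 116 CPM after vehicle and 40.8, 16.2, 46.6 and 41.3 CPM after PTX. The groups were apart in both genotype labels, and Ogn fell by 1.93 (log2, SE 0.42, edgeR adjusted p = 0.0157) and by 2.18 (SE 0.42, edgeR adjusted p = 0.0162). The fl/fl call was lost without PTX replicate 1 (edgeR adjusted p = 0.0652), and the CKO call without PTX replicate 1 or 2 or vehicle replicate 2 (0.0532 to 0.0605). The Ogn promoter window (RefSeq, GRCm38.p6) is shown because this gene too was called in both genotype labels.
Ogn (chr13:49607765-49608064, plus strand): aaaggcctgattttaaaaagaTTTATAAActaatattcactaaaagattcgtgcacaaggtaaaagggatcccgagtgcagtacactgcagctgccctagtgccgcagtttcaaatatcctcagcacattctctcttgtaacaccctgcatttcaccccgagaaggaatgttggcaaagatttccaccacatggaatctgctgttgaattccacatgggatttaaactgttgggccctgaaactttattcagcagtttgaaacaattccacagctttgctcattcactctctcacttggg

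Its capitals mark TATAAA in both orientations, overlapping each other, 229 and 227 bases before the start site, and the window was 42.3% G and C.

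Bgn encodes biglycan, a relative of decorin. In fl/fl it stood at 109, 179.6, 291 and 176 CPM after vehicle and 10.0, 24.8, 16.1 and 74.7 CPM after PTX. The groups did not overlap, although PTX replicate 4 stood above the other PTX libraries, and Bgn fell by 2.59 (log2, SE 0.70, edgeR adjusted p = 0.0414). The call was lost when any library but PTX replicate 4 was left out (edgeR adjusted p from 0.0602 to 0.139). In CKO it stood at 350.2, 232, 199 and 48.0 CPM after vehicle and 52.1, 20.0, 41.9 and 134 CPM after PTX, with a fold change of -1.74 (SE 0.67, edgeR adjusted p = 0.166). Prelp, which links basement membranes to connective tissue, stood at 18.1 to 46.8 CPM after vehicle and 2.33 to 19.6 CPM after PTX in fl/fl, and at 0 to 64.5 and 0 to 21.0 CPM in CKO. Its fold changes of -2.23 and -1.87 had standard errors of 1.56 and 1.54 and were not called (edgeR adjusted p = 0.478 and 0.541). Aspn and Fmod were tested and not called.

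**Figure D4:**
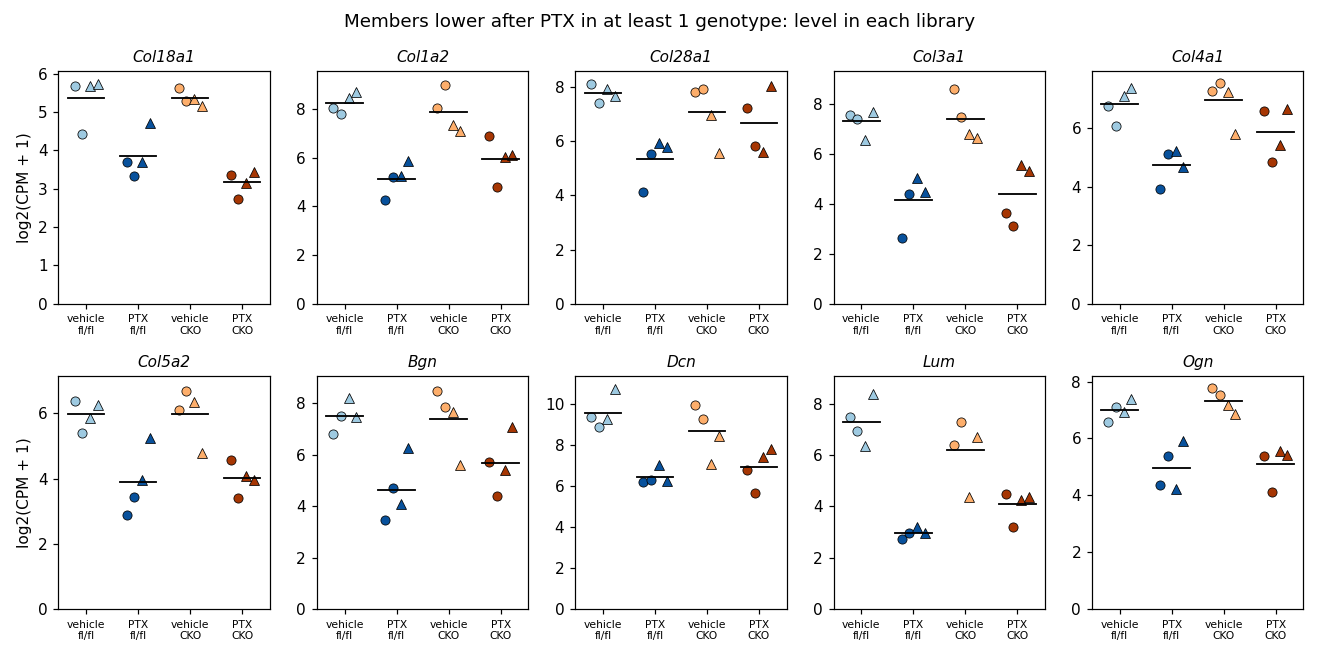
Level (vertical axis, log2 of CPM + 1, from 0) of the 10 members called lower after PTX in at least 1 genotype label, in each library by group, with circles for the earlier and triangles for the later title date of each treatment and bars for the mean of the 4 plotted values. In fl/fl the PTX libraries of Lum, Dcn, Col1a2, Col3a1 and Ogn lie below every vehicle library.

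Per kb of gene length, the members ranked by mean in the vehicle fl/fl libraries were led by Dcn at 148 ± 97.6 CPM per kb (SD, n = 4). Lum followed at 72.7 ± 45.5, Ogn at 50.7 ± 11.6, Col28a1 at 45.3 ± 9.71 and Bgn at 31.0 ± 12.3. Col1a2 came next at 25.1 ± 6.92, then Col5a3 at 20.7 ± 4.53, Col1a1 at 20.0 ± 8.45, Col3a1 at 16.9 ± 5.06 and Col4a1 at 15.8 ± 5.53. The ranges of each gene and the next one in this order overlapped, so neighbouring ranks were not separated beyond the spread of the libraries. SLRPs thus took 4 of the first 5 places. After PTX in fl/fl the means were lower and the order differed, with Dcn at 15.1 ± 4.41, Ogn at 13.3 ± 7.60, Col5a3 at 12.2 ± 9.78 and Col28a1 at 8.97 ± 3.98 CPM per kb. Lum stood in place 10 at 2.78 ± 0.418 CPM per kb.

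The filter on low counts left out 12 members. Col6a6 and Col9a1 had no count in any library. Col13a1 had 2, Col22a1 8, Col6a4 13, Col6a5 20, Col17a1 89, Col4a6 104, Col10a1 111, Omd 198, Col2a1 239 and Col8a2 293 counts in total over the 16 libraries. Of the 293 counts of Col8a2, a vessel and corneal collagen, 250 were in CKO PTX and came from replicate 4, at 29.8 CPM, with 0 in the other 3. 

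No member passed the threshold between the genotype labels. Under PTX, 0 of 39 members were called between CKO and fl/fl, where 0% of all genes were called. At an unadjusted edgeR p under 0.05, 7 members were higher in CKO and 0 lower, where 1.87% of all genes passed in either direction. The median log2 difference of the members was 0.64, against -0.04 over all genes. Over the same groups the median was 0.78 for satellite glia markers (2 of 7 higher at an unadjusted edgeR p under 0.05), 0.51 for Schwann cell markers and 0.25 for fibroblast markers (0 each), and their part in the members' difference was not tested. Same-numbered libraries, which share a title date, deviated together under PTX. With the replicate block 0 members were called and the median was 0.50. Under vehicle, 0 members were called by edgeR (0.0211% of all genes) and 1 passed unadjusted (Col25a1, lower in CKO; 4.61% of all genes), with a median of 0.11. DESeq2 and limma voom also called 0 members in both.

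Of the members with the smallest p under PTX, Col4a5 was at 0 in every fl/fl library and at 0.0985, 1.8, 8.04 and 2.03 CPM in CKO, at least 42.6-fold higher by the same floor (edgeR adjusted p = 1). Col4a1 was at 14.0 to 35.7 CPM in fl/fl and 27.8 to 98.8 CPM in CKO, and Col28a1 at 16.4 to 60.3 and 48.1 to 260.0 CPM. Both overlapped, with log2 differences of 1.29 (SE 0.47) and 1.55 (SE 0.56, edgeR adjusted p = 1 for both), and 1.25 and 1.43 with the replicate block. Under vehicle, Col25a1 had 85 counts in fl/fl and 1 in CKO, a ratio of 71.8 (95% exact counting interval 12.6 to 2869, edgeR adjusted p = 0.958), and Col4a3 had 73 and 2, a ratio of 30.8 (8.24 to 259, edgeR adjusted p = 1.00). These intervals cover counting error only. Col7a1 was at 0 to 0.333 CPM in fl/fl and 0 to 6.04 CPM in CKO (edgeR adjusted p = 1.00). Within the libraries of the earlier or of the later title date alone, 0 members were called in either treatment.

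Whether PTX changed a member differently in the 2 genotype labels was tested as an interaction. By edgeR 0 of 39 members passed after adjustment (0.00704% of all genes), and 5 passed unadjusted (3.35% of all genes), namely Lum, Col4a5, Col28a1, Col25a1 and Col24a1. Col24a1, which falls outside the rule for named genes, is given here because it completes this count, and it was the only one of the 5 with a negative interaction (-4.88, SE 2.29). For Lum, the change after PTX was 2.28 higher on the log2 scale in CKO than in fl/fl (SE 0.74, edgeR adjusted p = 1.00). For Col28a1 it was 2.02 higher (SE 0.79, edgeR adjusted p = 1.00). The calls that differed between fl/fl and CKO above are therefore not shown to differ in size.

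Lists of genes that make, link and degrade collagen were counted in the same fit, in which 1.76% of all genes were called lower in fl/fl and 0.359% in CKO. Of 26 tested genes of collagen synthesis and secretion, 2 were called lower and 0 higher after PTX in fl/fl. Pcolce, which helps to trim procollagen, fell by 2.72 (log2, edgeR adjusted p = 0.0152) and P4hb, a subunit of the enzyme that hydroxylates proline in collagen, by 0.99 (log2, edgeR adjusted p = 0.0170). In CKO, Adamts2, a protease that trims procollagen, was called higher and 0 genes lower. Its mean was 8.85 CPM after PTX and 0.0841 CPM after vehicle (log2 fold change 6.52, edgeR adjusted p = 0.0247). The vehicle mean lies near the floor of the counts, so the size of this change is poorly determined. Of 9 crosslinking genes, Sparc, which binds collagen, fell in fl/fl by 1.90 (log2, edgeR adjusted p = 0.0140).

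Collagen receptors gave 1 call among 9 tested, Ddr2, a receptor kinase for fibrillar collagen, which fell in fl/fl by 2.38 (log2, edgeR adjusted p = 0.0286). Of 12 matrix proteases and inhibitors, Timp3 fell by 1.92 (log2, edgeR adjusted p = 0.0227) and Mmp14 by 1.70 (log2, edgeR adjusted p = 0.0383) in fl/fl. Of 18 other matrix proteins, the basement membrane linkers Nid1 and Nid2 fell in fl/fl by 2.08 (log2, edgeR adjusted p = 0.0183) and 2.54 (log2, edgeR adjusted p = 0.0363). Of 5 other tested SLRP and leucine-rich matrix genes 0 were called, and the most abundant on that list, Chadl, had a mean of 28.5 CPM after vehicle and 8.78 CPM after PTX in fl/fl. TGF-beta genes gave 1 call among 16, Tgfbr3, which fell by 1.81 (log2, edgeR adjusted p = 0.0480) in fl/fl. Apart from Adamts2, 0 of the genes on these lists were called in CKO. The median log2 fold change in fl/fl was -0.82 for synthesis, -1.61 for crosslinking, -0.13 for receptors and -1.48 for proteases and inhibitors. It was -1.79 for other matrix proteins and -0.90 for TGF-beta genes, beside -2.13 for the members. For the 5 other SLRP and leucine-rich matrix genes it was -3.58, with fold changes from -8.64 to -1.70. The 10 listed genes of that kind summed to 8.47 to 18.1 CPM after PTX in fl/fl, so that median rests on low counts.

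Many members are neighbours in the genome. In the RefSeq table (GRCm38.p6, used for gene order only), 22 of the 51 members formed 12 pairs of adjacent protein-coding genes, such as Dcn and Lum, Col3a1 and Col5a2, Col4a1 and Col4a2, Prelp and Fmod, Col6a2 and Col6a1, and the row Aspn, Omd and Ogn. Members of a pair could stand apart in level: Ogn was at 94.6 to 165 CPM in vehicle fl/fl libraries, where Omd was at 0 to 7.07 CPM and Aspn at 3.51 to 26.0 CPM.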

How the data were processed

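The authors deposited 1 table of raw read counts per gene for each of the 16 libraries. Per the submitters' processing notes, bcl2fastq, TopHat2 and HTSeq were used with the mm9 build; versions and the strand setting of the counting are not given in the sources used here. Per the labels' protocols, libraries were stranded, poly(A)-selected and sequenced as single-end 50-base reads.

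All 16 libraries entered 1 model in edgeR 4.0.16 (R 4.3.3): groups as the only term, TMM scaling, the filterByExpr filter (14200 genes), a robust quasi-likelihood test and Benjamini-Hochberg adjustment over all genes tested. CPM were computed over TMM-scaled library sizes, and standard errors on the log2 scale from the fitted fold change and its test statistic. The procedure was tested on simulated data. Alternatives were DESeq2 1.42.0, voom in limma 3.58.1 with quality weights, other scalings and filters, a replicate block, title dates and leaving out each library. Under PTX, same-numbered fl/fl and CKO libraries deviated together (correlations of 0.43, 0.48, 0.47 and 0.23), and the same number was the best match in 5 of 8 cases. Same-numbered libraries also share a title date, so pairing by number cannot be told apart from a shared date. The values printed are from the fit without the block unless the block is named.

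Members, lists and tests were chosen with earlier results of these data known. The text names the members called after PTX, the 2 most abundant of each class, and the 3 with the smallest p in each genotype comparison and the interaction. Of other lists it names the called genes, at most 3 each way, or the most abundant. Members that failed the filter are given by total count.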

Additional observations from a re-analysis of the deposited data

Results flagged for a closer look

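Single libraries stood apart from the 3 others of their group for 15 of 104 sets of 4 libraries. The sets were each named member, and the sum of all members, in each group. The measure was the gap to the nearest library over the range of the group (Dixon). Chance flags about 1 in 20 where values are normally distributed, a rate that need not hold for untransformed CPM. A group in which a single library has counts is always flagged.

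PTX fl/fl replicate 4 was high for Col23a1 (43.1 CPM, the others 4.22 to 6.43), Prelp (19.6 CPM, the others 2.33 to 4.29) and Col15a1 (13.0 CPM, the others 0.664 to 2.76). CKO PTX replicate 4 was high for Col4a3 (53.8 CPM, the others at most 0.103) and Col8a2 (29.8 CPM, the others 0). CKO vehicle replicate 2 was high for Col23a1 (63.7 CPM, the others 14.9 to 20.8) and Col15a1 (29.0 CPM, the others 7.82 to 10.9).

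Dcn stood at 127 CPM in PTX fl/fl replicate 3 (the others 73.1 to 77.7) and at 1709.9 CPM in vehicle fl/fl replicate 4 (the others 472 to 661). Col18a1 was low in vehicle fl/fl replicate 2, at 20.4 CPM against 49.8 to 51.7. Col6a3 was high in CKO PTX replicate 1, at 15.5 CPM against 0.239 to 2.27, and Col12a1 was low in CKO PTX replicate 2, at 6.64 CPM against 20.5 to 21.8. At low counts, Col4a3 stood at 0.109 CPM in vehicle fl/fl replicate 1 (the others 2.08 to 2.31) and at 0.208 CPM in CKO vehicle replicate 4, and Col25a1 stood at 0.104 CPM in CKO vehicle replicate 4, with the other CKO vehicle libraries at 0 for both.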

How the results depend on the processing

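Alternatives were run for the 5 counts of members called and for 23 fold changes (the calls after PTX and the smallest p of the genotype and interaction comparisons), and none of these fold changes reversed. Against 8 members called after PTX in fl/fl, DESeq2 called 16, limma voom 30, and 5 were called with the replicate block, 13 without the later and 0 without the earlier PTX title date. Leaving out 1 library gave 4 to 12. Against 6 in CKO, limma voom called 11, the block left 2, a model of only these groups left 1, and the date subsets gave 11 and 0. Leaving out 1 library gave 0 to 6. Voom also shifted the median of all genes by 0.24 and 0.29 (log2). The replicate numbers did not pair libraries across treatment (correlations of -0.17, -0.2, -0.18 and -0.17 in fl/fl and 0.11, -0.01, 0.06 and -0.01 in CKO), nor across genotype under vehicle, and the block changed no genotype or interaction call. The cause of these changes was not tested, beyond the smaller number of libraries where some were left out. Genotype and interaction counts were 0 under every alternative run. With a common biological variation of 0.939 (as a coefficient), small changes were not detectable.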
